A study of Mus musculus with 6 samples.

Results

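The genes described here are 8 members of the Ms4a cluster on mouse chromosome 19 (Ms4a4a, Ms4a4b, Ms4a4c, Ms4a6b, Ms4a6c, Ms4a6d, Ms4a7 and Ms4a14), of 36333 genes listed in the expression tables. They were chosen by their TPM levels in these same libraries, as Ms4a genes that were lower together after stearic acid. Their differences between the groups are therefore a description and carry no test. The data are poly(A) RNA-seq libraries of bone marrow derived macrophages from C57BL/6 mice, grown from marrow with M-CSF, the growth factor that drives macrophage differentiation, for 7 days and replated one day before treatment. The vehicle group, 3 libraries, received ethanol, and the stearic acid group, 3 libraries, received 100 µM of this saturated long-chain fatty acid in fresh medium; both were collected after 24 h. No genetic change is recorded for either group, and both carried the same wash and medium change. Nothing in the labels says whether the replicates of a group came from separate animals or cultures, so the spread between them may be technical. The deposited values are TPM, a transcript abundance that is corrected for gene length and scaled to the same total in every library.

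MS4A proteins are small proteins that cross the cell membrane several times and sit beside receptors, whose surface level and signalling they can alter. The family is best known through CD20 (Ms4a1), the B cell surface protein targeted by therapeutic antibodies, and through the beta chain of the high-affinity IgE receptor (Ms4a2) of mast cells. In macrophages and microglia, MS4A4A, MS4A6A-type and MS4A7 proteins are markers of the mature cell. The human cluster is a risk locus for Alzheimer's disease and has also been linked to the soluble form of the lipid receptor TREM2. Mice carry local duplicates of the Ms4a4 and Ms4a6 genes, which is why these names occur with several letters.

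The 8 genes lay between chr19:11301249-11604804 (GRCm38.p6, RefSeq positions), a stretch of 303.6 kb with 3 genes on the minus strand and 5 on the plus strand. From left to right they were Ms4a14 (gene 383435, chr19:11301249-11315877, minus), Ms4a7 (gene 109225, chr19:11321039-11336146, minus), Ms4a4a (gene 666907, chr19:11375488-11392915, plus) and Ms4a4c (gene 64380, chr19:11404717-11427246, plus). The row continued with Ms4a4b (gene 60361, chr19:11443558-11463549, plus), Ms4a6c (gene 73656, chr19:11469353-11487182, plus), Ms4a6b (gene 69774, chr19:11518559-11530403, plus) and Ms4a6d (gene 68774, chr19:11586606-11604804, minus).

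How alike the copies are limits what each value can mean, because a read that fits more than one copy cannot be placed with certainty. In GENCODE M21 coding sequences (GRCm38), the most alike members were Ms4a4c and Ms4a4b, with 91.7% identity over 678 aligned bases. Ms4a6c and Ms4a6b followed with 85.4%, then Ms4a6b and Ms4a6d with 81.2% and Ms4a6c and Ms4a6d with 79.0%. Ms4a4a stood further off, at 68.3% to Ms4a4c and 65.9% to Ms4a4b, and Ms4a7 had 57.8% to 64.0% identity to the genes of the Ms4a4 and Ms4a6 groups that are members. The longest identical coding run of the closest pair is shown because reads of one gene that lie wholly within it cannot be told from reads of the other. It covers coding bases 321 to 447 in exons 5 and 6 of both genes and spans an intron on the genome, chr19:11419001-11421266 (plus) in Ms4a4c and chr19:11459161-11461265 (plus) in Ms4a4b.
Ms4a4c: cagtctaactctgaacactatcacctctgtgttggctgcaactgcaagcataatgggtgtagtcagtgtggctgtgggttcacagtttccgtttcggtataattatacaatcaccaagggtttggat
Ms4a4b: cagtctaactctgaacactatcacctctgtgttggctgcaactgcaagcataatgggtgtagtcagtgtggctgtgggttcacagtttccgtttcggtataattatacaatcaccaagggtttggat
The 127 bases are the same letter for letter. The matching display for the Ms4a6 genes is their longest identical run between Ms4a6b and Ms4a6d, coding bases 100 to 180, with the same positions of Ms4a6c below it. Capitals mark the 4 bases at which Ms4a6c differs from the others. The stretch lies at chr19:11520438-11521703 (plus, exons 3 and 4) in Ms4a6b, chr19:11601932-11603193 (minus, exons 2 and 3) in Ms4a6d and chr19:11471204-11472425 (plus, exons 2 and 3) in Ms4a6c.
Ms4a6b: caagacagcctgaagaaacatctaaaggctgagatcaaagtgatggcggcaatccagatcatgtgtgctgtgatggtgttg
Ms4a6d: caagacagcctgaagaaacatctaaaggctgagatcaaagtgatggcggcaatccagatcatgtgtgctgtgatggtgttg
Ms4a6c: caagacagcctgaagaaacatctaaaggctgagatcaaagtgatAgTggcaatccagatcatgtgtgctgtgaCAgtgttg
Of these 81 bases, Ms4a6c shares 95.1% with the other two.

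Most of each transcript nevertheless held letters of its own. Counting every run of 75 bases along the annotated transcripts of a gene, 3.8% of the runs of Ms4a4c occurred in another gene, all of them in Ms4a4b. The share was 2.2% for Ms4a4b, 3.2% for Ms4a6c, 1.1% for Ms4a6b and 0.5% for Ms4a6d. Not all of it lay between sister copies. Of 57 shared runs of Ms4a6c, 35 were with Prdm11 and 22 with Ms4a6b. Of 103 shared runs of Ms4a4b, 65 were with Ms4a4c and 38 with Ms4a2. It was 0.0% for Ms4a14, Ms4a7 and Ms4a4a. With runs of 50 bases the highest shares were 11.3% for Ms4a6c and 8.2% for Ms4a4c, and with runs of 100 bases they were 1.7% for Ms4a4c and 0.9% for Ms4a4b. At 100 bases the 10 shared runs of Ms4a6c were all with Prdm11, and the Ms4a6 genes had no run in common. No source used here gives the read length or the handling of reads that fit several genes, so the levels within the Ms4a4b and Ms4a4c pair and within the Ms4a6 trio remain uncertain by the part that such reads contribute.

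All 8 genes had a mean of at least 1 TPM over the 6 libraries, and in all 8 every stearic acid library lay below every vehicle library. Over all 11551 genes at or above that level, the groups did not overlap in this direction in 21.7%, and in 22.8% they did not overlap in the other. The members were chosen for this pattern, so their count is given beside that share and nothing is read from it. In 5 of the 8 genes the stearic acid mean was under 50% of the vehicle mean, against 0.944% of all genes tested. The median difference of the 8 genes, stearic acid minus vehicle, was -1.01 on the log2(TPM + 1) scale, and the median over all genes tested was -0.03. That scale adds 1 TPM to every value and so understates the differences of low genes.

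In the Ms4a4 group, Ms4a4a encodes a surface protein of macrophages that binds the fungal sugar receptor Dectin-1. Its level was 23.16, 23.86 and 22.33 TPM in the vehicle libraries and 13.46, 2.441 and 3.974 TPM in stearic acid replicates 1, 2 and 3. The vehicle libraries lay close together, and the stearic acid libraries were all lower, with replicates 2 and 3 far below replicate 1. The means were 23.12 ± 0.7660 and 6.625 ± 5.969 TPM (SD, n = 3 each), a 3.49-fold lower mean and a log2 difference of -1.94, the furthest from 0 among the 8 genes. At the lowest value, in stearic acid replicate 2, about 56 reads or read pairs stood behind the level.

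Ms4a4c, one of the duplicated mouse genes of this group, was measured at 12.35, 13.21 and 13.19 TPM with vehicle and at 7.791, 3.206 and 4.822 TPM with stearic acid. The groups were apart, with means of 12.91 ± 0.4901 and 5.273 ± 2.325 TPM (SD, n = 3 each), a 2.45-fold lower mean. Its close copy Ms4a4b, first studied in T cells, had 3.722, 3.751 and 4.489 TPM with vehicle and 2.267, 0.7781 and 2.012 TPM with stearic acid. Ms4a4b was the lowest of the 8 genes in both groups, with means of 3.987 ± 0.4345 and 1.686 ± 0.7961 TPM (SD, n = 3 each), 2.37-fold apart. The ratio of Ms4a4b to Ms4a4c was 0.309 ± 0.029 with vehicle and 0.317 ± 0.09 with stearic acid (SD, n = 3 each), a difference smaller than the spread between libraries. The ratio of Ms4a4a to Ms4a4c was 1.88, 1.81 and 1.69 with vehicle and 1.73, 0.761 and 0.824 with stearic acid. In replicates 2 and 3 Ms4a4a was thus below Ms4a4c, while it was above it in the 4 other libraries.

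In the Ms4a6 group, which corresponds to human MS4A6A and related genes, Ms4a6b had 121.1, 124.5 and 127.3 TPM with vehicle and 82.16, 36.00 and 53.26 TPM with stearic acid. The group means were 124.3 ± 3.144 and 57.14 ± 23.32 TPM (SD, n = 3 each), 2.17-fold apart, and the libraries did not overlap. Ms4a6c had 98.82, 104.8 and 107.7 TPM with vehicle and 72.76, 41.34 and 54.67 TPM with stearic acid. Its means of 103.8 ± 4.511 and 56.26 ± 15.77 TPM (SD, n = 3 each) were 1.84-fold apart, again with no overlap. The ratio of Ms4a6b to Ms4a6c was 1.18 to 1.22 in the vehicle libraries and 1.13, 0.871 and 0.974 in the stearic acid libraries, so the vehicle order of the pair was turned in replicates 2 and 3.

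Ms4a6d, the third gene of the group and one whose product has been tied to the complement receptor Vsig4 in macrophages, showed much smaller differences. It had 222.0, 248.7 and 228.5 TPM with vehicle and 215.8, 211.1 and 206.9 TPM with stearic acid. The groups did not overlap, but the gap between the lowest vehicle and the highest stearic acid library was 6.187 TPM, less than the SD of the vehicle libraries. The means were 233.1 ± 13.92 and 211.3 ± 4.458 TPM (SD, n = 3 each), a 1.10-fold difference and -0.14 on the log2 scale. The ratio of Ms4a6d to Ms4a6b, which share the run of identical bases printed above, was 1.88 ± 0.11 with vehicle and 2.63, 5.86 and 3.88 with stearic acid.

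Ms4a7, a marker of mature macrophages and of border macrophages in the brain, was the most abundant of the 8 genes per length. Its level was 526.4, 605.1 and 548.0 TPM with vehicle and 483.0, 389.8 and 395.2 TPM with stearic acid. The means of 559.8 ± 40.65 and 422.6 ± 52.32 TPM (SD, n = 3 each) were 1.32-fold apart, and the libraries did not overlap. Its neighbour Ms4a14, which encodes a longer protein than the other members, had 65.70, 61.35 and 77.52 TPM with vehicle and 50.67, 20.75 and 29.08 TPM with stearic acid. Its means were 68.19 ± 8.369 and 33.50 ± 15.44 TPM (SD, n = 3 each), 2.04-fold apart, and here too every stearic acid library was under every vehicle library. The ratio of Ms4a14 to Ms4a7 was 0.123 ± 0.02 with vehicle and 0.0772 ± 0.026 with stearic acid (SD, n = 3 each).

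**Figure D1:**
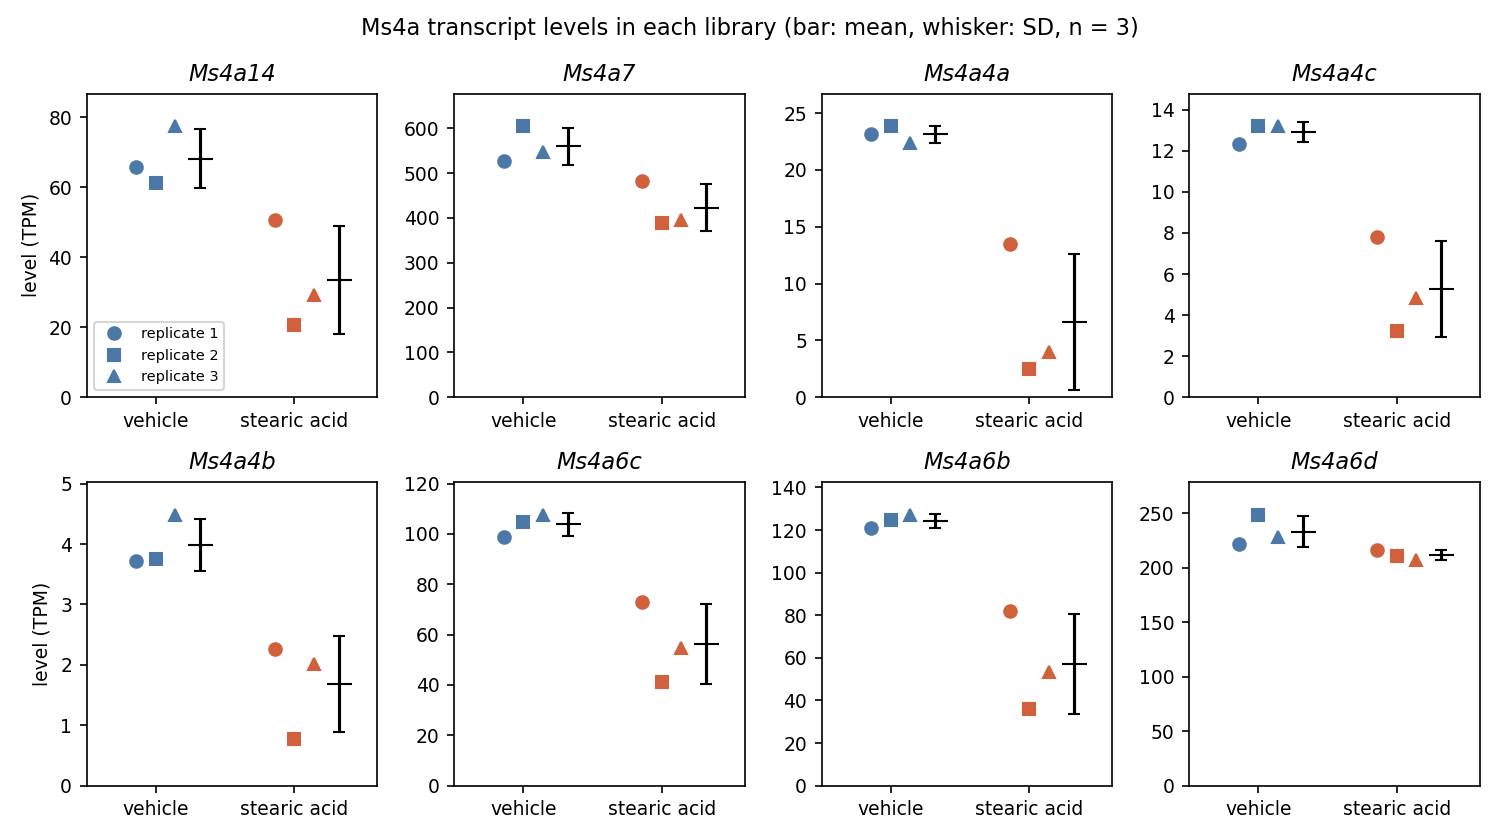
Level in TPM (vertical axis, from 0, a scale of its own for each gene) of the 8 Ms4a genes in the 3 vehicle and 3 stearic acid libraries; symbols stand for replicate numbers, bars for means and whiskers for SD. Every stearic acid point lies below every vehicle point in all 8 genes, by a gap of 6.187 TPM in Ms4a6d, whose means are 233.1 and 211.3 TPM, and the lowest levels are those of Ms4a4b.

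With vehicle the order of the levels was Ms4a7, Ms4a6d, Ms4a6b, Ms4a6c, Ms4a14, Ms4a4a, Ms4a4c and Ms4a4b, from high to low, and the vehicle libraries of neighbours in this order did not overlap. With stearic acid, Ms4a6b and Ms4a6c could no longer be separated, their means being 57.14 and 56.26 TPM with SDs above 15 TPM. The range of Ms4a14 overlapped those of both, but within each stearic acid library Ms4a14 was below both. The ratio of Ms4a6c to Ms4a14 was 1.44, 1.99 and 1.88 with stearic acid and 1.5, 1.71 and 1.39 with vehicle. The ranges of Ms4a4a and Ms4a4c also overlapped, and their order differed between the stearic acid libraries, as given above. Summed over the 8 genes, the level was 1073.2, 1185.2 and 1129.0 TPM with vehicle and 927.9, 705.4 and 749.9 TPM with stearic acid. Ms4a7 made up 49.6% of the vehicle sum and 53.2% of the stearic acid sum, and Ms4a6d made up 20.6% and 26.6%. The abundance of the family was therefore carried in both groups mainly by the members that differed least.

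In 7 of the 8 genes, all but Ms4a6d, the stearic acid libraries differed from one another more than the vehicle libraries did relative to their mean, by a modest margin in Ms4a7. In stearic acid replicate 1, the members kept between 56.8% (Ms4a4b) and 92.6% (Ms4a6d) of the vehicle mean. In replicate 2 they kept between 10.6% (Ms4a4a) and 90.5% (Ms4a6d), and in replicate 3 between 17.2% and 88.8%, again in Ms4a4a and Ms4a6d. In the same 7 genes, replicate 1 was the highest stearic acid library, replicate 3 the middle one and replicate 2 the lowest. The same ranking was found in 82.7% of the 1374 genes that passed the test as lower and in 43.3% of all genes tested, so it was not limited to the Ms4a genes. The median member difference from the vehicle mean was -0.55, -1.57 and -1.05 (log2) in stearic acid replicates 1, 2 and 3, beside a median absolute difference of 0.285, 0.601 and 0.425 over all genes that passed the test. Without stearic acid replicate 1 the median difference of the 8 genes was -1.27, and without replicate 2 it was -0.76.

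**Figure D2:**
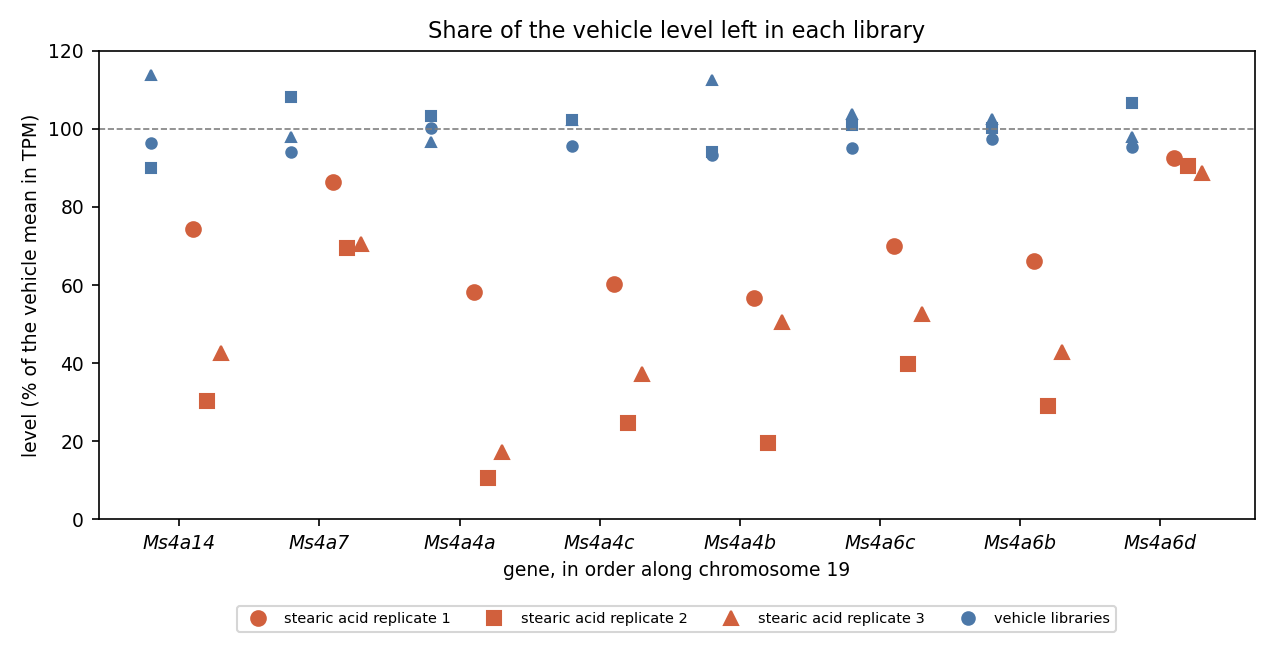
Level of each of the 8 Ms4a genes in each library as a percent of that gene's vehicle mean (vertical axis, from 0; dashed line, 100%), with the genes in their order along chromosome 19. Stearic acid replicate 2 is the lowest point in 7 of the 8 genes, down to 10.6% in Ms4a4a, whereas the 3 points of Ms4a6d lie together between 88.8% and 92.6%.

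Spread within the groups followed the same split. The coefficient of variation (SD over mean) was 2.5% to 12.3% with vehicle, lowest in Ms4a6b and highest in Ms4a14. With stearic acid it was 90.1% in Ms4a4a, 47.2% in Ms4a4b, 46.1% in Ms4a14, 44.1% in Ms4a4c, 40.8% in Ms4a6b, 28.0% in Ms4a6c, 12.4% in Ms4a7 and 2.1% in Ms4a6d. Across the 6 libraries the Pearson correlation between members, on log2(TPM + 1), ran from 0.685 to 0.999 over 28 pairs. It ran from 0.875 to 0.999 over the 21 pairs without Ms4a6d, with the highest value for Ms4a4c and Ms4a6c, which are of different subgroups. These correlations are descriptive: both groups contribute to them, all points of a library share its preparation and depth, and the members were picked for moving together.

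The genes whose pattern over the 6 libraries was most like the mean member profile (Pearson r of log2(TPM + 1) with the mean z-score of the 8 genes, 11543 other genes ranked) were Igbp1, Srek1ip1, Gm30794, Lyz2, Gm36161, Arhgap15, Trex1 and Scp2, with r from 0.9988 to 0.9968. In all, 55 genes reached an r of at least 0.99. Lyz2, which encodes the lysozyme of macrophages, went from 26281.5 ± 776.6 to 19817.5 ± 2360.6 TPM (mean ± SD, n = 3 each), a log2 difference of -0.41. Trex1, a DNA exonuclease, had means of 178.8 and 130.0 TPM, and Arhgap15, a regulator of Rac, had 19.43 and 11.67 TPM. The differences of these 8 genes ran from -1.12 (Gm36161) to -0.26 (Srek1ip1), so a near-identical pattern went with differences of quite unequal size. They were ranked by likeness to the member profile in the same contrast, so they too are given without a test.

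The upstream sequences of the duplicates are shown because the members moved together. RefSeq (GRCm38.p6) promoter windows, taken here as the 250 bases before a start, were found for 7 of the 8 genes; Ms4a7 has 2 windows, and Ms4a6d was not matched. The GC content of the 8 windows was 30.4% to 42.4%, below the median of 52.4% over all 32851 promoters. The windows of Ms4a6c and Ms4a6b were identical in 85.1% of 175 aligned bases and those of Ms4a4c and Ms4a4b in 78.4% of 232, whereas the other pairs had 48.7% to 61.9% identity. Below, capitals mark the longest run shared with the sister copy, 20 bases for Ms4a4c (chr19:11407411-11407660, plus) and Ms4a4b (chr19:11443308-11443557, plus) and 48 bases for Ms4a6c (chr19:11469118-11469367, plus; shared with Ms4a6b). In the window of Ms4a4a (chr19:11375238-11375487, plus), capitals mark a motif match.
Ms4a4c: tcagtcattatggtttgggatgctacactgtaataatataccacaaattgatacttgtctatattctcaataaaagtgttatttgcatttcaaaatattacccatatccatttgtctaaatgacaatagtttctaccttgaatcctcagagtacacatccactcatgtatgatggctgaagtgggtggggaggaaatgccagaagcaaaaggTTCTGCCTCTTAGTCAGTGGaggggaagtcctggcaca
Ms4a4b: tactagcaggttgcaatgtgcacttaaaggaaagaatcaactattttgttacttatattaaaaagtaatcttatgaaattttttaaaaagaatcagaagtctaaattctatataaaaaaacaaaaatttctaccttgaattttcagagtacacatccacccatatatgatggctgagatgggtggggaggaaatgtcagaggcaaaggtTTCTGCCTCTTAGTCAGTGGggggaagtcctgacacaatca
Ms4a6c: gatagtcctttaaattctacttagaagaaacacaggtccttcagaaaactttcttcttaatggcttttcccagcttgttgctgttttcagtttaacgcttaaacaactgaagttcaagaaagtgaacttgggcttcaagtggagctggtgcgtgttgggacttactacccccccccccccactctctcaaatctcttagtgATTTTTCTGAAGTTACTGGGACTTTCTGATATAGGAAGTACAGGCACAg
Ms4a4a: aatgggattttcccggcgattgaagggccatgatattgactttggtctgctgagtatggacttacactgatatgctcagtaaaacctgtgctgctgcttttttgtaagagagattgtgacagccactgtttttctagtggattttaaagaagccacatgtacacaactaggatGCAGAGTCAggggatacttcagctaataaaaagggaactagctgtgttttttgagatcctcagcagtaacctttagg
The shared run began 38 bases before the start in Ms4a4c and 41 bases before it in Ms4a4b, and 49 bases before the start in Ms4a6c but 118 bases before it in Ms4a6b. The windows of Ms4a4c, of Ms4a14 and the second one of Ms4a7 lie inside the RefSeq span of the gene, so their starts are inner starts.

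These windows were searched on both strands for 8 short motifs of factors active in macrophages. The core of the antioxidant response element bound by NRF2, TGACNNNGC, was found in Ms4a4a alone of the 7 genes, on the reverse strand 77 to 69 bases before the start, and in 10.2% of all promoters. The AP-1 motif TGANTCA was found in Ms4a14 (32 to 26 bases before its inner start) and in the inner window of Ms4a7 (81 to 75 bases), and in 6.7% of all promoters. None of the 7 genes held the letters searched for PU.1 (GAGGAAGT, 2.4% of all promoters), the interferon response element (GAAA and GAAA with 2 bases between, 3.0%), the ETS-IRF composite (GGAA and GAAA with 2 bases between, 2.3%) or the STAT site GAS (TTCNNNGAA, 7.0%). The same held for C/EBP (TTGCNNAA, 9.6%) and the E-box of MITF and TFE factors (CACGTG, 6.0%). The AP-1 and NRF2 motifs can overlap in part. A match is a description of these letters and not a bound site, and no match says only that the letters are not in the window.

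Of the other genes of the superfamily, 13 Ms4a genes and the related Tmem176a and Tmem176b were looked up. All 13 Ms4a genes were under the 1 TPM filter, with 0.1347 TPM as the highest value in any library, and 8 of them were listed at 0 in every library. Ms4a1, the B cell gene, lay between 0.02202 and 0.1347 TPM with no separation of the groups. Ms4a4d, the third mouse copy of the Ms4a4b and Ms4a4c pair with 83.8% and 86.1% identity to them, had 0.09849, 0.1024 and 0.1072 TPM with vehicle and 0.09282, 0.02478 and 0 TPM with stearic acid, too low to be tested. Expression of the family in these cells was thus limited, among the listed genes reaching 1 TPM, to the 8 members.

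Tmem176a and Tmem176b, neighbours on chromosome 6 whose products are ion channels of intracellular membranes and regulate antigen presentation and inflammasome activity, fell in the fit across all genes, 2 of 2 in the list. Over all genes tested, 11.9% passed as lower and 12.8% as higher (24.7% in either direction, limma, adjusted p under 0.05). The Tmem176 genes and the gene lists below were chosen with earlier results of these data known, so their counts are descriptions. Tmem176b had 125.1, 110.2 and 126.7 TPM with vehicle and 70.90, 28.06 and 41.32 TPM with stearic acid, -1.45 on the log2 scale (SE 0.26, limma, adjusted p = 0.0087). Tmem176a had 55.02, 47.46 and 52.75 TPM with vehicle and 29.10, 9.144 and 15.88 TPM with stearic acid, -1.61 (SE 0.31, limma, adjusted p = 0.0107). The stearic acid libraries ranked as in the members, with replicate 1 highest and replicate 2 lowest, and neither gene's groups overlapped. Both calls were lost without vehicle replicate 2 or vehicle replicate 3, with adjusted p up to 0.0617 for Tmem176a and 0.0573 for Tmem176b over the alternatives. The 2 genes overlap on the genome, at chr6:48841483-48845364 and chr6:48833811-48845948, so reads from the shared part may be split between them.

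Partners of MS4A proteins were taken from a list of 14 genes: receptors reported to bind an MS4A protein, the signalling chains these receptors use and the tetraspanins that organise the same membrane domains. Of 12 tested, 1 rose, 3 fell and 8 did not pass, with a median difference of -0.16. The shares over all genes tested were 12.8% higher and 11.9% lower. Dectin-1 itself (Clec7a), the partner of Ms4a4a, had 53.43 ± 4.320 TPM with vehicle and 65.67 ± 8.565 TPM with stearic acid, a difference of 0.29 that did not pass (SE 0.10, limma, adjusted p = 0.0677); it passed as higher with RPKM (0.03), with median-of-ratios scaling (0.035) and without stearic acid replicate 2 (0.039). Trem2, the lipid receptor linked to MS4A4A in humans, had 1555.2 ± 55.86 and 1632.1 ± 84.47 TPM, and the libraries overlapped (0.07, SE 0.07, limma, adjusted p = 0.458). Its adaptor Tyrobp (3160.2 and 2786.1 TPM) and the Fc receptor gamma chain Fcer1g (2270.2 and 1942.2 TPM) did not pass either, at -0.18 and -0.22, though neither gene's groups overlapped. Tyrobp passed as lower with quantile normalization (limma, adjusted p = 0.035) and without stearic acid replicate 1 (0.048). The kinase Syk and its adaptor Card9, which carry the Dectin-1 signal, had differences of 0.14 and -0.11 with overlapping libraries.

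Among the Fc receptors, Fcgr1, the high-affinity IgG receptor, fell from 132.6 ± 2.318 to 101.6 ± 9.799 TPM (-0.38, SE 0.08, limma, adjusted p = 0.0136, n = 3 each). Fcgr3 (-0.29) and Fcgr4 (-0.15) did not pass, though both did without stearic acid replicate 1. The Fcgr1 call was lost without any one of the vehicle libraries. Tnfrsf18, which encodes the GITR receptor reported to join with Ms4a4b in T cells, fell from 2.538 to 1.395 TPM (-0.59, SE 0.16, limma, adjusted p = 0.0307), a call lost without any one vehicle library or stearic acid replicate 3. The tetraspanin Cd81 fell from 300.0 to 261.8 TPM (-0.20, SE 0.06, limma, adjusted p = 0.04999), and of the 6 fits that leave out 1 library, this call, just inside the threshold, passed in 1, the one lacking stearic acid replicate 1. It was also lost with RPKM (limma, adjusted p = 0.094), median-of-ratios scaling, no filter, no trend and both smaller pseudocounts. Cd63, a tetraspanin of late endosomes and lysosomes, rose from 689.6 ± 35.11 to 1004.1 ± 72.32 TPM (0.54, SE 0.07, limma, adjusted p = 0.0029), with every stearic acid library above every vehicle library, and passed in all 6 fits that leave out 1 library. Vsig4, the partner of Ms4a6d, was at or under 0.1007 TPM in all libraries, and Kit was at 0.3897 to 0.5042 TPM with vehicle and 1.053 to 1.404 TPM with stearic acid, under the filter of a mean of 1 TPM.

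**Figure D3:**
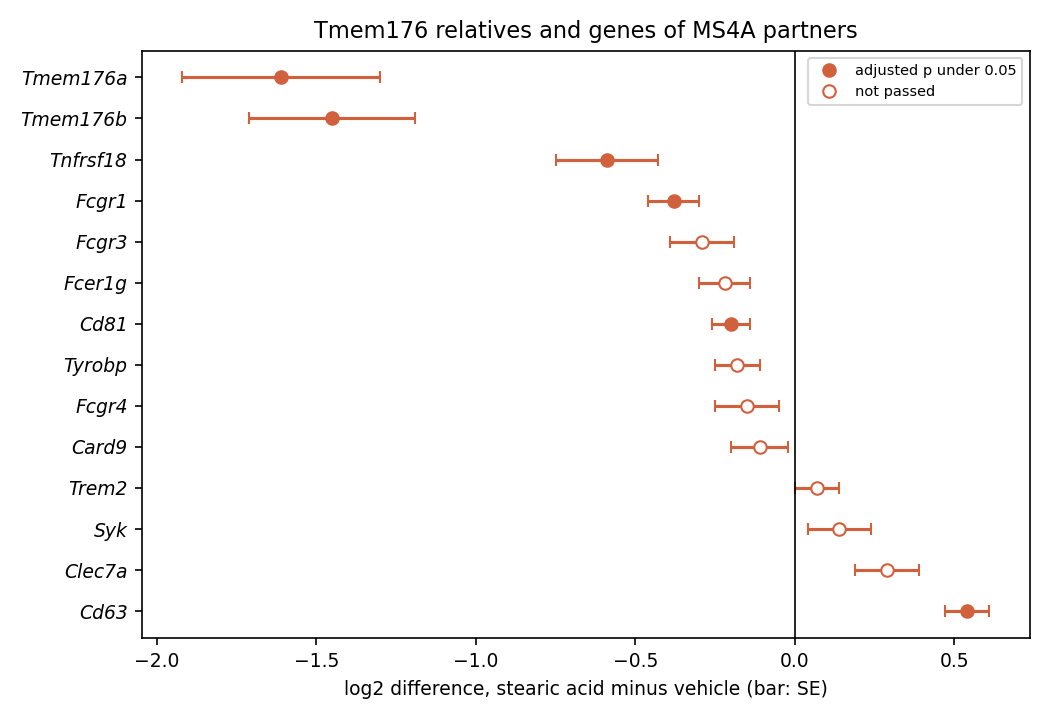
Log2 difference, stearic acid minus vehicle (horizontal axis, bars are SE from limma), of Tmem176a, Tmem176b and the 12 tested partner genes of MS4A proteins; filled points passed an adjusted p under 0.05. The Tmem176 genes are at -1.61 and -1.45, while the partners lie between -0.59 (Tnfrsf18) and 0.54 (Cd63).

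Position on the chromosome was looked at next. Among the 10 nearest coding genes on each side of the 8 members and the genes between them that are no Ms4a gene (Ms4a4d, which lies between Ms4a6b and Ms4a6d, is given above), 22 genes in all and 12 of the flanking ones Ms4a genes already counted, 3 reached the filter and 13 were listed at 0 in every library. The nearest tested coding gene to the right, Mrpl16, a mitochondrial ribosome gene, had 42.05 TPM with vehicle and did not pass (0.08, SE 0.09, limma, adjusted p = 0.543), and next to it the syntaxin gene Stx3 did not pass (0.20, SE 0.08, limma, adjusted p = 0.0883). Every stearic acid library of Stx3 lay above every vehicle library. Stx3 passed as higher with RPKM (limma, adjusted p = 0.03) and with median-of-ratios scaling (0.038). The third was BE692007, a noncoding RNA gene on the opposite strand inside Ms4a6c (chr19:11473447-11482579, minus). It had 6.029, 5.744 and 5.859 TPM with vehicle and 4.121, 1.727 and 2.604 TPM with stearic acid and fell by 0.90 on the log2 scale (SE 0.19, limma, adjusted p = 0.0148), which was lost without vehicle replicate 2 or 3. The library kit keeps strand, but no source used here says whether the counting used it, so reads of Ms4a6c and of this antisense gene may not be separated. Gm8369, a coding gene between Ms4a6c and Ms4a6b, was under the filter. It had 0.7976, 0.5366 and 1.090 TPM with vehicle and 0.2948, 0.1574 and 0.3263 TPM with stearic acid. The noncoding RNA gene 4930526L06Rik, which ends just left of Ms4a14, was also under it, with means of 1.057 and 0.4196 TPM. On the right, past Stx3, the coding gene Olfr1417 was under the filter too, with means of 1.159 and 0.7449 TPM and no overlap between the groups. None of these genes under the filter was tested.

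The wider region from Tmem132a to Osbp (chr19:10857829-11994114), chosen after these values were seen, held 47 listed genes, of which 21 are Ms4a genes. Of the 10 tested genes in it that are no members, 2 rose, 2 fell and 6 did not pass. The shares over all genes tested were 12.8% higher and 11.9% lower, so nothing is read from these counts. None of the 8 coding genes among them fell. Tmem132a rose from 14.02 to 18.81 TPM (0.40, limma, adjusted p = 0.0177) and Ccdc86 from 23.16 to 30.94 TPM (0.39, limma, adjusted p = 0.0267). Over all alternatives their adjusted p (limma) reached 0.0687 and 0.0897. Both calls were lost in the fits lacking vehicle replicate 2, lacking vehicle replicate 3 and lacking stearic acid replicate 3. The Ccdc86 call was also lost in the fit lacking vehicle replicate 1. All 8 coding genes lie outside the span of the members. The midpoints nearest to the start of Ms4a14 were at -370.5 kb (Ccdc86) on the left and 456.8 kb (Mrpl16) on the right. The other gene that fell was AW112010, a noncoding RNA gene of immune cells at chr19:11047612-11050566 (minus), outside the 8 members on their left. It had 24.14, 28.87 and 25.18 TPM with vehicle and 14.49, 6.414 and 10.06 TPM with stearic acid (-1.32, SE 0.22, limma, adjusted p = 0.0065), with the same ranking of the stearic acid libraries as in the members. The AW112010 call was lost without vehicle replicate 2, with adjusted p (limma) up to 0.0573 over the alternatives.

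**Figure D4:**
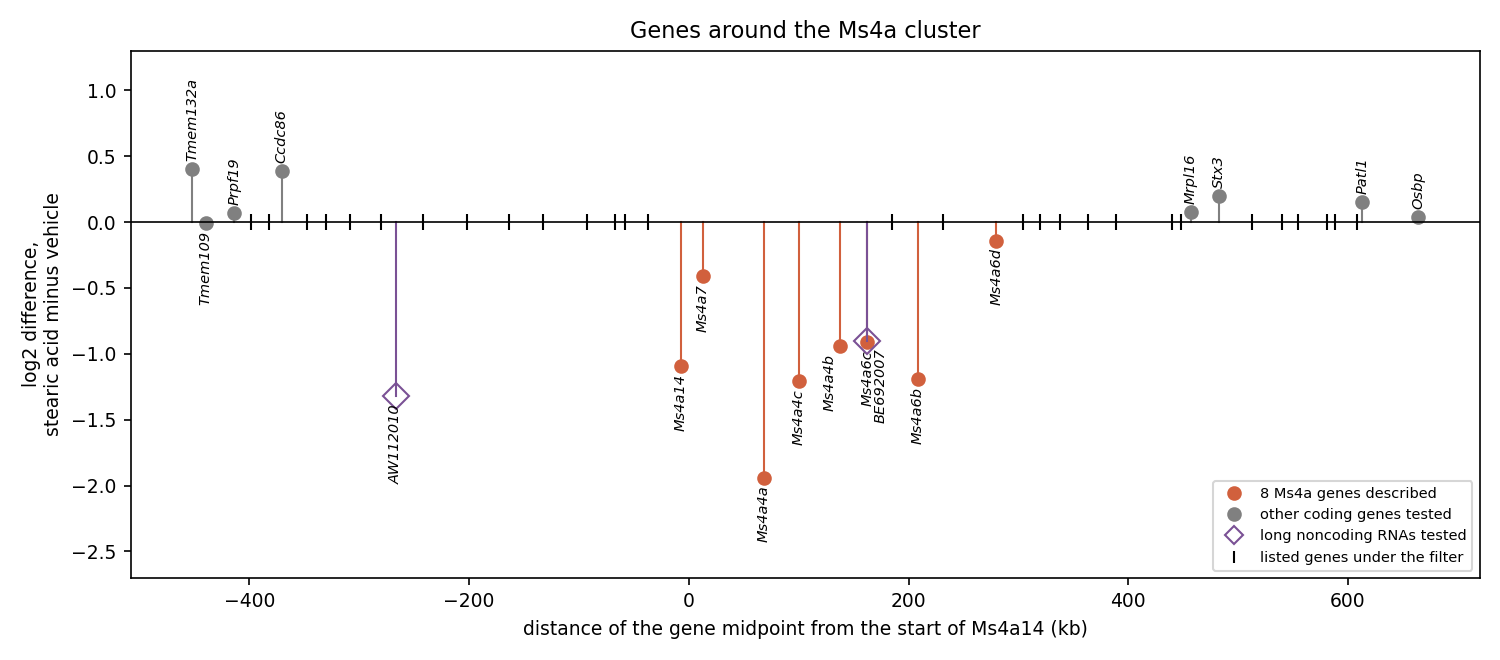
Log2 difference, stearic acid minus vehicle (vertical axis), of the tested genes around the cluster against the distance of the gene's midpoint from the start of Ms4a14 in kb; small ticks on the zero line are listed genes under the filter. The 8 Ms4a genes lie between -1.94 and -0.14 and the noncoding RNAs AW112010 and BE692007 at -1.32 and -0.90, while none of the 8 other coding genes tested fell. These 8 other coding genes all lie outside the span of the Ms4a genes described.

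The cell type was checked with marker lists. All 10 macrophage markers were expressed, with summed levels of 33138.3 to 34024.2 TPM in the vehicle libraries and 23417.1 to 29123.3 TPM in the stearic acid libraries. Of them, 6 fell, 1 rose and 3 did not pass, beside 11.9% lower and 12.8% higher over all genes tested. The count that fell was 0 without vehicle replicate 2, 1 without vehicle replicate 3 and 3 without vehicle replicate 1; leaving out stearic acid replicate 3 gave 4, and leaving out replicate 1 of that group gave 8. Mrc1, the mannose receptor, fell from 57.22 to 25.18 TPM (-1.26, limma, adjusted p = 0.0159), and Cx3cr1, the fractalkine receptor, from 573.3 to 363.0 TPM (-0.67, limma, adjusted p = 0.0073). Cd68, a lysosomal glycoprotein, rose from 1998.5 to 2459.3 TPM (0.30, limma, adjusted p = 0.0148). The Mrc1 call was lost without vehicle replicate 2 or 3, the Cx3cr1 call without vehicle replicate 2 (adjusted p = 0.0503) and the Cd68 call without any one vehicle library or stearic acid replicate 3.

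Markers of other cell types were low. The 5 monocyte markers summed to 19.04 to 24.61 TPM with vehicle and 5.312 to 13.21 TPM with stearic acid, almost all of it Ccr2, the monocyte chemokine receptor, the only one tested, which fell from 20.86 to 8.624 TPM (-1.26, limma, adjusted p = 0.0117, lost without vehicle replicate 2 or 3). The 6 dendritic cell markers summed to 3.088 to 4.080 and 1.167 to 2.824 TPM, where 1 was tested and fell (Ciita, -0.85, limma, adjusted p = 0.0301, lost without any one vehicle library or stearic acid replicate 3). The 5 B cell markers summed to 2.638 to 2.949 and 1.283 to 1.796 TPM, where only Cd79b was tested and fell (-0.62, limma, adjusted p = 0.0055). The 7 neutrophil and progenitor markers summed to 4.994 to 7.307 and 8.379 to 9.406 TPM, where S100a8 rose (0.81, limma, adjusted p = 0.016, lost without vehicle replicate 2), 1 did not pass and Ms4a3 was listed at 0. The 7 T and NK cell markers (0.8502 to 1.141 and 1.220 to 1.625 TPM, with Cd3d, Cd3e, Cd3g and Ncr1 at 0) and the 6 mast cell and basophil markers (0.4859 to 0.6198 and 1.235 to 1.642 TPM, with Fcer1a and Mcpt8 at 0) had no gene above the filter. With no filter, the Ccr2, Ciita and S100a8 calls were lost, while the Cd79b call was kept. The part of these marker shifts in the Ms4a values was not tested. In bulk RNA, fewer cells of a type and less RNA per cell cannot be told apart.

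For scale, the depth recovered from the tables was 58.1 to 80.8 M reads or read pairs with vehicle and 64.0 to 76.3 M with stearic acid, and 1 TPM stood for 19.1 to 27.7 reads per kb of transcript. The number of genes at or above 1 TPM was 11379 to 11639 per library. Between 56 reads (Ms4a4a) and 25455 reads (Ms4a7) thus stood behind single member values, an estimate that rests on the annotated transcript lengths.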

How the data were processed

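Poly(A) RNA was sequenced from 3 vehicle and 3 stearic acid libraries; per the labels' protocols, RNA was extracted with Trizol and RNeasy and libraries were made with a stranded mRNA kit. The authors deposited TPM and RPKM per gene, and the submitters' processing notes name DRAGEN with GRCm38 and mm10; no source used here gives the counting rules. Of 36333 genes listed, 97.3% matched RefSeq by gene number, and 27 names that a spreadsheet had turned into dates were replaced. Levels were tested with limma 3.58.1 (trend, R 4.3.3) on log2(TPM + 1) for the 11551 genes averaging 1 TPM or more over 6 libraries; p-values were adjusted by Benjamini-Hochberg, with 0.05 as the threshold; the script was tested on simulated data. RPKM served as an alternative unit and to estimate depth: in single-exon genes, RPKM steps gave whole reads for 63.9% to 69.4% of the values checked (tolerance 0.02), too few for a count test. The members and all gene lists were chosen with earlier results of these data known. Named are the 8 members, relatives, partners, neighbours and other markers that reach the filter, and the 8 genes most like the member profile. Transcripts were compared with Biopython 1.88. Alternatives were another pseudocount, filter, unit or scaling, a replicate block, and leaving out each library.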

Additional observations from a re-analysis of the deposited data

How the results depend on the processing

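All 119 recomputed differences of the 8 members kept their sign, over the pseudocount, filter, unit, scaling, trend, replicate block and left-out libraries. Their median, -1.01, ran from -1.27 (without stearic acid replicate 1) to -0.76 (without stearic acid replicate 2); Ms4a6d ran from -0.17 to -0.09 and Ms4a4a from -2.54 to -1.51. The median of all genes lay between -0.057 and 0.012 over these settings.

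The count of genes that passed, 2856, was 1027 with no filter and 550 to 5010 with 1 library left out (1073, 550 and 628 on leaving out vehicle replicate 1, 2 or 3, and 5010, 1997 and 1005 on leaving out stearic acid replicate 1, 2 or 3). Deviations from the group mean correlated at 0.07, 0.288 and 0.039 for equal replicate numbers, against -0.318 to 0.275 for unequal numbers. With 3 libraries per group, these values cannot decide whether equal numbers pair the samples. With the replicate block 3638 genes passed, and 2 partner genes rather than 1 rose, Clec7a (adjusted p = 0.023, limma) joining Cd63; Fcgr3 fell (0.04) and Cd81 was lost (0.056), and 8 macrophage markers rather than 6 fell. Clec7a was the second also with RPKM and median-of-ratios scaling and Kit with no filter, each giving 2; the range was 1 to 2 with 1 library left out. The partner genes that fell, 3, were 1 with no filter and 0 to 6 with 1 library left out (0 without any one vehicle library, 6 without stearic acid replicate 1, 1 without stearic acid replicate 3). Of the neighbours, 1 (Stx3) rose with RPKM or median-of-ratios scaling against 0, and the 1 that fell became 0 with a filter of 5 TPM, with no filter and without vehicle replicate 2 or 3 (range 0 to 1). The 2 Tmem176 genes became 0 with no filter and without vehicle replicate 2 or 3 (range 0 to 2). The cause of these shifts was not tested. The macrophage markers that fell, 6, were 2 with no filter and 0 to 8 with 1 library left out. Of 372 values of 25 other named genes, 296 kept their call, 63 lost it and 13 gained it. Among them, 1 crossed 0, that of Mrpl16, which never passed (0.08, and -0.0043 without vehicle replicate 3). The 25 genes include the 8 most like the member profile, which were chosen in this same contrast, so the tally is no test of them. It does not cover Mrc1, Cx3cr1, Cd68, Ccr2, Ciita, Cd79b, S100a8, Tmem132a, Ccdc86 and AW112010.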
